A study of Homo sapiens with 12 samples.

Results

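Keratins are described here through 9 genes, KRT7, KRT8, KRT80 and KRT81 of the basic type II class and KRT10, KRT15, KRT17, KRT18 and KRT19 of the acidic type I class. They were taken by their names from the 58302 genes of the deposited table. Selection by name used no measured value, but the names were chosen with earlier results of these data known. Of the 9, 7 were expressed at a level that could be tested, and KRT17 and KRT19 were at or near the detection floor in all lines. KRT81, a hair keratin, differed most between the lines. Its mean level in the clone WB1 was 12.7% of that in the parental TPC1 cells, against 49.8% in D11 and 73.7% in TD5. KRT80 fell in D11, whereas KRT7 and KRT10 passed no test.

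Keratins are the intermediate filament proteins of epithelial cells. A filament is built from pairs of 1 type II and 1 type I chain, so the members are expressed in partnerships, of which KRT8 with KRT18 is the one of simple epithelia such as the thyroid follicle. KRT7 and KRT19 accompany this pair in many ductal and glandular epithelia and in their carcinomas, KRT15 and KRT17 belong to basal and appendage epithelia, KRT10 to differentiating epidermis, and KRT81, like its neighbours KRT83, KRT85 and KRT86, to the hair shaft. Filaments are anchored to desmosomes at cell contacts and to hemidesmosomes at the base of the cell.

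The 12 RNA-seq libraries comprised 3 of TPC1, a human papillary thyroid carcinoma cell line labelled wild type and untreated, and 3 of every DICER (+/-) line, namely D11, WB1 and TD5. DICER1 encodes the RNase that cuts microRNA precursors. The 3 lines were derived from TPC1 by transient transfection of a CRISPR/Cas9 plasmid with a guide against DICER1. Each is a single clone, in which 1 allele carries a deletion that shifts the reading frame, and the growth medium is given as the same RPMI medium with fetal bovine serum. A difference between a clone and TPC1 therefore cannot be told apart from a difference between single cells of the parental population. The labels do not say whether the 3 libraries of a line came from separate cultures, and the methods state only in general that experiments were repeated independently, so the p-values measure the spread between these libraries, which may be technical. The study asked how the dose of DICER1 bears on thyroid cells, and the comparisons with TPC1 show here what the keratin transcripts did in each clone.

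The values are read counts per gene that were scaled to 20000000 per library and rounded up, called scaled reads below. An estimated 12700000 to 21020000 reads lay behind each library, and a floor of 3 reads corresponded to 2.85 to 4.72 scaled reads, which covers counting error only. DICER1 had 1101 to 1360 scaled reads in TPC1, 977 to 1093 in D11, 815 to 939 in WB1 and 627 to 809 in TD5. Of 7 thyroid follicular cell markers 4 were detected in every line, and TSHR, SLC5A5 and NKX2-1 were at 0 in all 12 libraries. PAX8 had 7248 to 9879 scaled reads, HHEX 84 to 135 and TG 11 to 27, and none of these was called in a clone. FOXE1, a thyroid transcription factor, fell in all 3 clones, from 280 to 316 scaled reads in TPC1 to 123 to 171 in D11 (log2 fold change −0.95, adjusted p = 0.000138), 112 to 151 in WB1 (−1.06, adjusted p = 5.16e-05) and 93 to 131 in TD5 (−1.20, adjusted p = 2.79e-05). Of 5 epithelial markers KRT8 and KRT18 were abundant, whereas EPCAM had at most 5 scaled reads, CDH1 at most 2 and KRT19 at most 6. The 4 basal keratinocyte markers summed to at most 7 scaled reads per library, the 3 endothelial markers to at most 9 and the 4 leukocyte markers to at most 15. The 6 fibroblast markers summed to 257 to 362 scaled reads in TPC1, 165 to 203 in D11, 235 to 355 in WB1 and 187 to 219 in TD5, with DCN at 0 everywhere. Members of this list moved apart in WB1, where LUM rose, from 63 to 78 scaled reads to 138 to 212 (log2 fold change 1.01, adjusted p = 0.000114), and PDGFRB fell, from 112 to 192 to 37 to 56 (−1.41, adjusted p = 2.21e-05). LUM also fell in D11 (adjusted p = 1.3e-08) and TD5 (adjusted p = 3.38e-08), where no library had over 2 scaled reads, at least 18.9-fold and 16.9-fold lower when set against the mean floor of those libraries. The part of FOXE1 and of the fibroblast markers in the results was not tested. In such bulk RNA fewer cells with a transcript and less of it per cell cannot be told apart.

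The 16027 genes that reached 1 per 1000000 in 3 or more libraries were tested on log2(value per 1000000 + 1). A gene was called, and is said to have risen or fallen, at an adjusted p under 0.05 together with a change of at least 1.5-fold. Adjusted p-values are from limma with Benjamini-Hochberg adjustment over all tested genes, and intervals are 95% confidence intervals of the log2 fold change. By the F test over the 4 lines, which has no fold minimum, 5 of the 7 tested keratins passed, namely KRT8, KRT15, KRT18, KRT80 and KRT81, beside 44.6% of all tested genes. Against TPC1, 2 keratins were called in D11 (KRT80 and KRT81, both lower), 1 in WB1 (KRT81, lower) and 0 in TD5. The background was 4.84% of tested genes called in D11 (1.95% lower), 4.99% in WB1 (1.59% lower) and 2.60% in TD5. By the adjusted p alone 5 keratins passed in D11, 4 in WB1 and 3 in TD5, beside 33.3%, 30.9% and 11.9% of tested genes. The 3 of TD5 (KRT8, KRT18 and KRT81) were also those with an unadjusted p under 0.05. The median log2 fold change of the 7 keratins was −0.26 in D11, −0.24 in WB1 and −0.08 in TD5, beside 0.05, 0.06 and 0.00 over all tested genes.

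**Figure D1:**
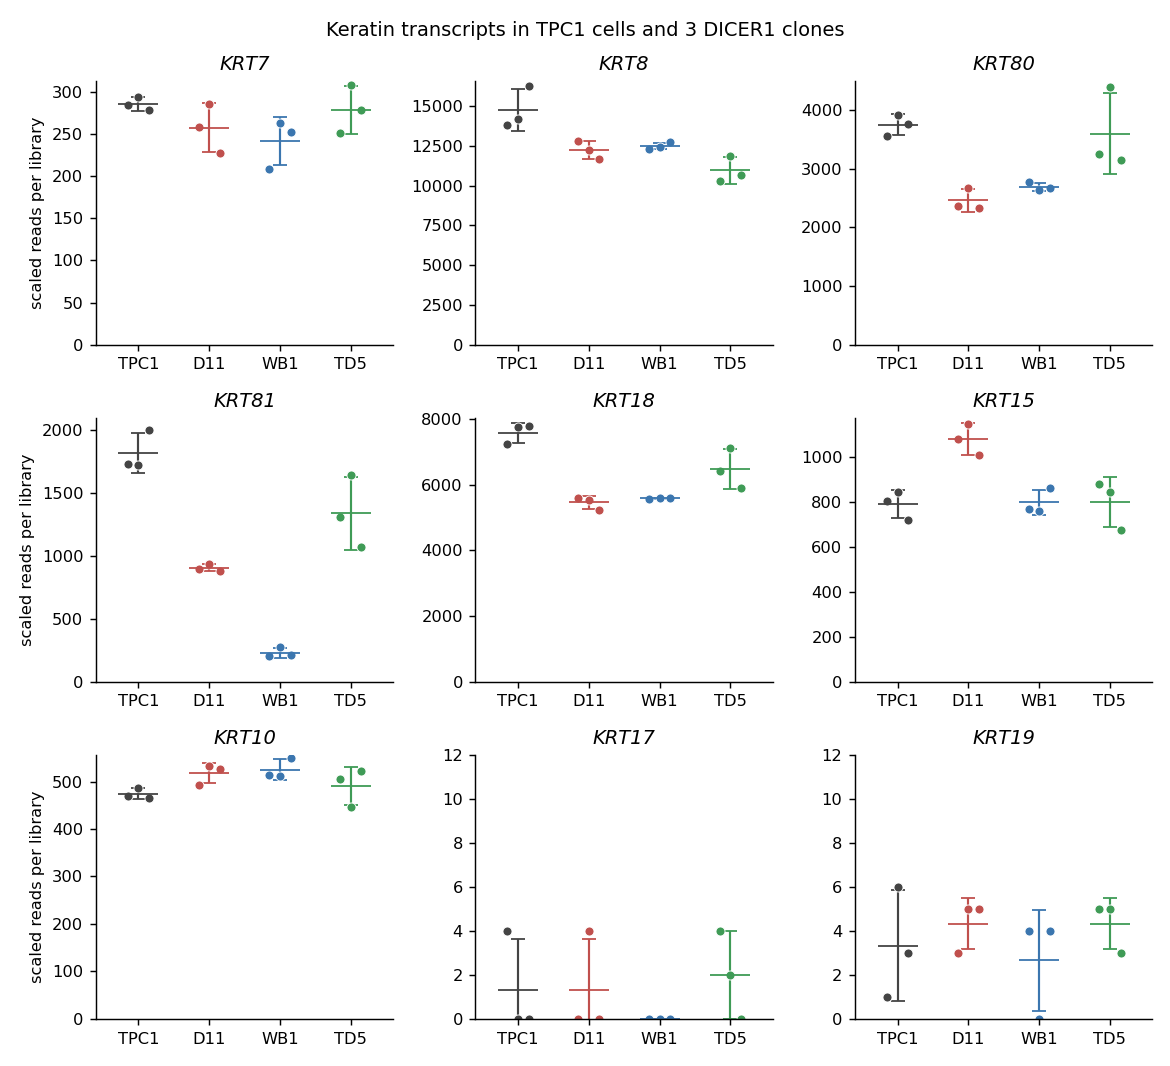
Scaled reads of the 9 keratins in each library of TPC1, D11, WB1 and TD5 (points), with the mean as a horizontal bar and the standard deviation (n = 3) as an error bar, drawn from 0 upwards. KRT81 has its lowest libraries in WB1, at 203 to 274 scaled reads, and KRT17 and KRT19 stay at or below 6.

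Levels of different keratins were compared per kilobase of their main transcript and per 1000000. In TPC1 KRT8 stood highest at 413 ± 37.3 (SD, n = 3), followed by KRT18 at 268 ± 10.9. KRT80 at 48.4 ± 2.32 and KRT81 at 47 ± 4.17 came next and overlapped within their spread. KRT15 (23 ± 1.83), KRT10 (11.1 ± 0.268) and KRT7 (8.77 ± 0.248) were lower, and KRT19 (0.12 ± 0.0905) and KRT17 (0.0439 ± 0.0761) were the least abundant. KRT8 and KRT18 together made up 83.1% ± 0.649 of this keratin level in TPC1, and 83.4% ± 0.801, 86.7% ± 0.145 and 81.2% ± 1.09 in D11, WB1 and TD5. All 9 keratins took 0.147% ± 0.00856 of the library sum in TPC1, which was above each clone (D11 0.115% ± 0.0044, WB1 0.113% ± 0.00139, TD5 0.12% ± 0.0118).

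KRT81 (ENSG00000205426, chromosome 12, 52285913 to 52291534 of GRCh38, minus strand) is a hair keratin whose reads are hard to place, because KRT86 next to it is a near copy and the annotated span of KRT86, on the plus strand, covers all of KRT81. The coding sequences of both aligned over 1457 bases, of which 1372 (94.2%) were identical. The longest run without a difference was 605 bases, and a read that lies within it cannot be told apart between KRT81 and KRT86. KRT83, another hair keratin, was 93.3% identical to KRT81 over 1467 aligned coding bases. Among the 9 members no pair came near this, but pseudogenes were not compared. The closest to KRT81 was KRT7 with 68.6%, and the closest pair was KRT15 and KRT17 with 74.8%. How many reads were placed or lost in the shared stretches cannot be read from the scaled values, so the level of KRT81 is uncertain to that extent.

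The TPC1 libraries held 1729, 1716 and 2001 scaled reads of KRT81. The D11 libraries held 894, 935 and 882, those of WB1 only 203, 274 and 212, and those of TD5 1306, 1641 and 1066. All 9 clone libraries were below the lowest TPC1 library, as they were for 6.67% of tested genes, and the ranges of the 4 lines did not overlap. KRT81 fell in WB1 with a log2 fold change of −2.89 (standard error 0.13, interval −3.15 to −2.62, adjusted p = 2.2e-10), which is 7.39-fold. It fell in D11 by 0.99 on the log2 scale (standard error 0.13, adjusted p = 4.12e-05). In TD5 the log2 fold change was −0.45 (interval −0.72 to −0.19, adjusted p = 0.0261), short of the 1.5-fold minimum. This value rested on single libraries. Without TD5 replicate 2 it was −0.61 and was called (adjusted p = 0.00197). Without TD5 replicate 1 (−0.45), TD5 replicate 3 (−0.30), TPC1 replicate 1 (−0.49) or TPC1 replicate 3 (−0.38) the adjusted p was above 0.05, at 0.0738, 0.116, 0.0555 and 0.123.

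The clones also differed in KRT81 among themselves. In the order TPC1, TD5, D11 and WB1, from the highest to the lowest level, WB1 was below D11 by a log2 fold change of −1.90 (adjusted p = 2.27e-08) and below TD5, with TD5 against WB1 at 2.43 (adjusted p = 1.23e-09). The step from D11 to TD5 was 0.53 (interval 0.27 to 0.80, adjusted p = 0.00638), short of the 1.5-fold minimum. Of the 7 keratins KRT81 was the only one called in WB1 against D11, where 2.85% of tested genes were called, and in TD5 against WB1, where 2.33% were. In TD5 against D11, where 3.99% of tested genes were called, none of the 7 was. By the adjusted p alone 4 passed there (KRT15, KRT18, KRT80 and KRT81, beside 23.2% of tested genes), and by the unadjusted p 5, with KRT8 added. The adjusted p alone passed 2 in WB1 against D11 (KRT15 and KRT81, beside 8.07%) and 3 in TD5 against WB1 (KRT18, KRT80 and KRT81, beside 13.6%).

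**Figure D2:**
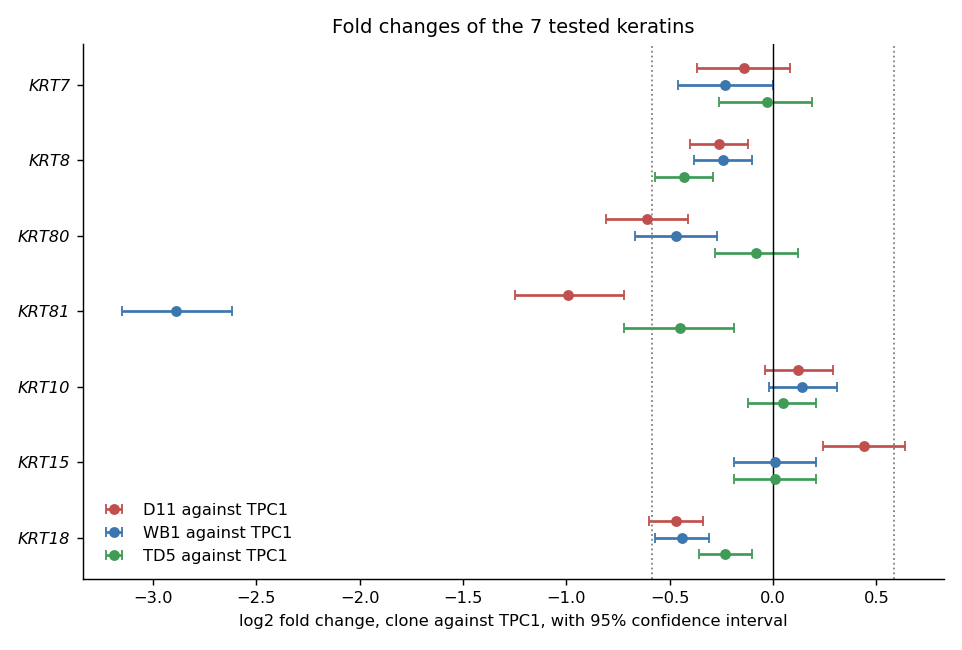
Log2 fold change of each tested keratin in D11, WB1 and TD5 against TPC1 (points) with its 95% confidence interval (bars); dotted lines mark 1.5-fold in either direction. KRT81 in WB1 stands apart at −2.89. At 2 decimals 11 of the 21 intervals, among them all 9 of KRT8, KRT18 and KRT81, lie below 0. That of KRT7 in WB1 ends at 0.00.

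The hair keratins beside KRT81 were far less abundant. KRT86 had 49, 48 and 41 scaled reads in TPC1 and 49, 40 and 35 in D11, with 18, 25 and 24 in WB1 and 35, 41 and 45 in TD5. It fell in WB1 (log2 fold change −0.64, interval −0.92 to −0.37, adjusted p = 0.00184), where every library was below the libraries of the other 3 lines. The call was lost without WB1 replicate 1 (−0.57), with a pseudocount of 4 (−0.30) and after correction for GC content (−0.53). KRT83 had 8, 12 and 17 scaled reads in TPC1 and 0, 0 and 2 in WB1, where it was at least 3.48-fold lower when set against the mean floor of the WB1 libraries. KRT85 had 7, 3 and 11 in TPC1 and 0, 2 and 0 in WB1. Its TPC1 replicate 2 was itself under the floor, so no fold is given. KRT83 and KRT85 failed the filter and were not tested. In D11 and TD5 both genes had 3 to 13 scaled reads. The pseudogene KRT87P had 34 to 52 scaled reads in TPC1, 20 to 28 in D11 and 17 to 26 in WB1, with log2 fold changes of −0.49 (adjusted p = 0.0233) and −0.55 (adjusted p = 0.0141), both short of the 1.5-fold minimum.

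Per kilobase KRT81 exceeded KRT86 46.5 ± 8.94 times (SD, n = 3) in TPC1, 39.2 ± 10.2 times in TD5, 25.9 ± 4.2 times in D11 and 12.1 ± 1.55 times in WB1. WB1 and D11 overlapped neither with each other nor with TPC1, while TD5, at 27.6 to 46.6, overlapped with both D11 and TPC1. The ratio was not tested. Within 500000 bases of KRT81 on chromosome 12, 11 other genes were tested, the keratins KRT7, KRT80 and KRT86 included. In D11 2 were called, SCN8A higher (0.59) and KRT80 lower (−0.61). In WB1 1 was called, KRT86 (lower, −0.64), and in TD5 0. Of all tested genes 4.84%, 4.99% and 2.60% were called in D11, WB1 and TD5. The median log2 fold change of the 11 neighbours was −0.11 in D11, −0.23 in WB1 and −0.04 in TD5.

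**Figure D3:**
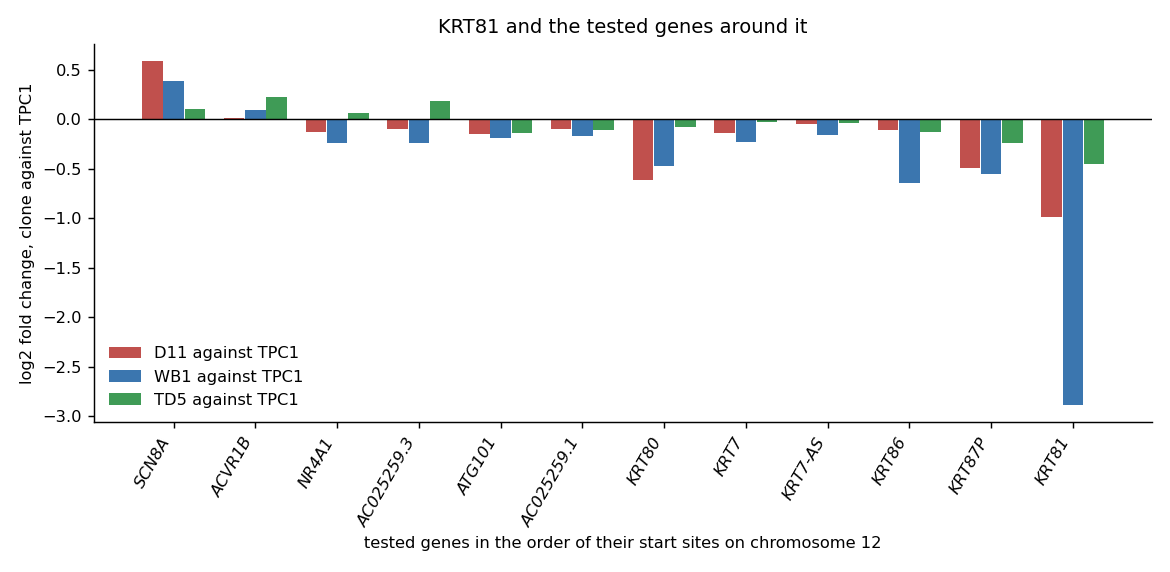
Log2 fold change in D11, WB1 and TD5 against TPC1 (bars) for KRT81 and the 11 tested genes within 500000 bases of it, in the order of their starts on chromosome 12. The bar of KRT81 in WB1 reaches −2.89, whereas the other genes lie between −0.64 and 0.59.

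KRT80 (ENSG00000167767, chromosome 12, 52168996 to 52192014, minus strand) is a type II keratin that many epithelia produce. Its scaled reads were 3567, 3926 and 3765 in TPC1 and 3258, 4391 and 3146 in TD5, but 2361, 2678 and 2339 in D11 and 2767, 2642 and 2674 in WB1. D11 and WB1 were below every TPC1 library, and TD5 spanned the TPC1 range. A lack of overlap with TPC1, in either direction, held for 51.1% of tested genes in D11 and 45.7% in WB1. KRT80 fell in D11 (log2 fold change −0.61, interval −0.81 to −0.41, adjusted p = 0.00029). The call sat at the edge of the fold minimum: without TPC1 replicate 2 or D11 replicate 3 the value was −0.57, and without D11 replicate 1 it was −0.58, all short of 1.5-fold. After a correction of each library for the GC content of the genes it was −0.51. WB1 differed from TPC1 by −0.47 (interval −0.67 to −0.27, adjusted p = 0.00177), below the fold minimum. In TD5 the difference was −0.08 (interval −0.28 to 0.12, adjusted p = 0.665), and without TD5 replicate 2, its highest library, −0.23 with an adjusted p of 0.033.

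KRT80 in TD5 lay above both other clones without being called. The log2 fold change was 0.53 against D11 (adjusted p = 0.000965) and 0.40 against WB1 (adjusted p = 0.012). WB1 against D11 did not pass, and its interval was −0.07 to 0.33. TD5 replicate 2 held the highest TD5 value not only of KRT80 but also of KRT7, KRT8, KRT18 and KRT81, and the lowest of KRT10.

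KRT8 (ENSG00000170421, chromosome 12, 52897187 to 52949954, minus strand) and KRT18 (ENSG00000111057, chromosome 12, 52948871 to 52952906, plus strand) are partners in the filament and neighbours in the genome. KRT8 had 13804, 14171 and 16274 scaled reads in TPC1, followed by 12833, 12257 and 11704 in D11 and 12337, 12405 and 12728 in WB1. The TD5 libraries had 10280, 11882 and 10701. KRT18 had 7224, 7741 and 7775 in TPC1 and 5586, 5545 and 5237 in D11. WB1 had 5558, 5586 and 5594, while TD5 had 6411, 7126 and 5902. For both genes all 9 clone libraries lay below the lowest TPC1 library, as they did for 6.67% of tested genes. None of these differences reached 1.5-fold, so neither gene was called.

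The clones were not ordered alike for the partners. KRT8 was lowest in TD5, at 74.3% of the TPC1 mean (log2 fold change −0.43, interval −0.57 to −0.29, adjusted p = 0.000526), against 83.2% in D11 (−0.26, adjusted p = 0.00739) and 84.7% in WB1 (−0.24, adjusted p = 0.0139). The WB1 value no longer passed without TPC1 replicate 3 (−0.16, adjusted p = 0.0862). KRT18 was lowest in D11, at 72.0% (−0.47, interval −0.60 to −0.34, adjusted p = 6.16e-05), and WB1, at 73.6% (−0.44, interval −0.57 to −0.31, adjusted p = 0.000119), and stood at 85.5% in TD5 (−0.23, adjusted p = 0.0242). Leaving out TPC1 replicate 2 or 3 or TD5 replicate 1 or 3 raised the adjusted p of this TD5 value above 0.05, to at most 0.0997. KRT18 was higher in TD5 than in D11 (0.24, adjusted p = 0.0105) and in WB1 (0.21, adjusted p = 0.0341), both short of 1.5-fold. Without D11 replicate 3 or TD5 replicate 2 the first had an adjusted p of 0.0578 or 0.0573, and the second exceeded 0.05 without any 1 of the 3 WB1 libraries or without TD5 replicate 1 or 2, with at most 0.16. The difference in KRT8 passed in neither case (intervals −0.30 to −0.02 and −0.33 to −0.05, adjusted p = 0.083 and 0.0642).

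The ratio of KRT8 to KRT18 per kilobase was 1.51, 1.45 and 1.66 in the TPC1 libraries. It was 1.82, 1.75 and 1.77 in D11 and 1.76, 1.76 and 1.8 in WB1, above every TPC1 library, and 1.27, 1.32 and 1.44 in TD5, below every TPC1 library. The means were 1.54 ± 0.107 in TPC1, 1.78 ± 0.0355 in D11 and 1.77 ± 0.0252 in WB1, against 1.34 ± 0.0851 in TD5 (SD, n = 3). With 3 libraries against 3 this ratio was described and not tested. Over all members the ratio of type II to type I level per kilobase was 1.71 ± 0.116 in TPC1, and close to it with 1.72 ± 0.0281 in D11 and 1.71 ± 0.00704 in WB1. It was 1.5 ± 0.0854 in TD5, where all 3 libraries, at 1.4 to 1.56, were below those of TPC1, at 1.62 to 1.84.

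**Figure D4:**
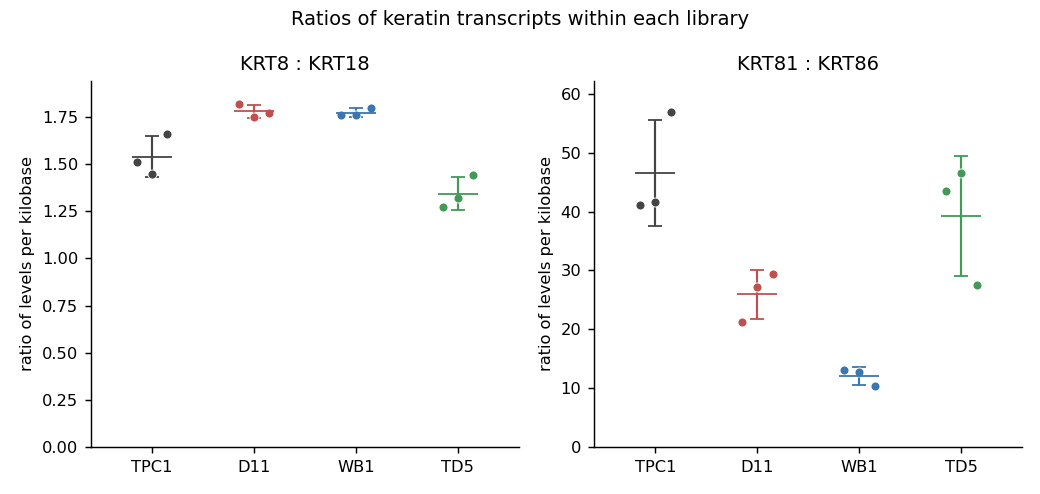
Ratio of the levels per kilobase of KRT8 to KRT18 (left) and of KRT81 to KRT86 (right) in each library (points), with the mean as a horizontal bar and the standard deviation (n = 3) as an error bar. For KRT8 to KRT18, D11 and WB1 lie above and TD5 below the 3 TPC1 libraries, and for KRT81 to KRT86, WB1 is lowest at 10.3 to 13.1.

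KRT15 (ENSG00000171346, chromosome 17, 41513745 to 41522529, minus strand), a keratin of basal and hair follicle cells, was the only tested member with its highest level in D11 beyond the spread. It had 804, 844 and 721 scaled reads in TPC1 and 1079, 1147 and 1006 in D11, with 768, 761 and 863 in WB1 and 881, 843 and 675 in TD5. Every D11 library was above every other library. D11 and TPC1 alone did not overlap, in either direction, for 51.1% of tested genes. The log2 fold change in D11 was 0.44 (interval 0.24 to 0.64, adjusted p = 0.00297), short of 1.5-fold. WB1 and TD5 were below D11 by the same value of −0.43 (adjusted p = 0.00853 and 0.00456), and without D11 replicate 2 the value for WB1 did not pass (−0.38, adjusted p = 0.0596). Against TPC1, WB1 and TD5 differed by 0.01 each, with an interval of −0.19 to 0.21 in both cases. Of the other genes of basal cells, the keratins KRT5 and KRT14 had at most 3 scaled reads and the regulator TP63 had 0.

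KRT7 (ENSG00000135480, chromosome 12, 52232520 to 52252186, plus strand), the glandular type II keratin, had 284, 294 and 278 scaled reads in TPC1, followed by 258, 286 and 228 in D11 and 209, 263 and 252 in WB1. The TD5 libraries had 251, 308 and 278. The lines overlapped, apart from WB1, which lay below TPC1. WB1 and TPC1 did not overlap, in either direction, for 45.7% of tested genes. The log2 fold changes were −0.14 in D11 (interval −0.37 to 0.08), −0.23 in WB1 (−0.46 to 0.00) and −0.03 in TD5 (−0.26 to 0.19), with adjusted p of 0.312, 0.113 and 0.88. Across the alternatives the WB1 value was −0.31 to −0.14, with adjusted p of 0.0371 to 0.389.

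KRT10 (ENSG00000186395, chromosome 17, 40818117 to 40822614, minus strand), the type I keratin of differentiating epidermis, had 470, 487 and 465 scaled reads in TPC1 and 493, 532 and 527 in D11. WB1 had 513, 512 and 550, while TD5 had 506, 446 and 522. D11 and WB1 lay just above TPC1 without overlap, which was the case in either direction for 51.1% and 45.7% of tested genes. The log2 fold changes were 0.12 in D11 (interval −0.04 to 0.29, adjusted p = 0.242), 0.14 in WB1 (−0.02 to 0.31, adjusted p = 0.177) and 0.05 in TD5 (−0.12 to 0.21, adjusted p = 0.757). None of these intervals reached 1.5-fold in either direction.

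KRT17 (ENSG00000128422, chromosome 17, 41619442 to 41624842, minus strand) and KRT19 (ENSG00000171345, chromosome 17, 41523617 to 41528308, minus strand) failed the filter. KRT17, a keratin of injured and hyperproliferating epithelia, had 4, 0 and 0 scaled reads in TPC1 and 0, 4 and 0 in D11, with 0, 0 and 0 in WB1 and 4, 2 and 0 in TD5. KRT19, a type I keratin of glandular epithelia and of papillary thyroid carcinoma, had 1, 6 and 3 in TPC1, followed by 3, 5 and 5 in D11 and 4, 0 and 4 in WB1. The TD5 libraries had 5, 5 and 3. KRT17 was above the floor of 3 reads in 2 libraries and KRT19 in 7. A difference between the lines was not detectable at this depth.

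Several members share their place in the genome with another gene. The strand setting of the read counting is not given in the sources used here, so reads of genes on opposite strands may not have been told apart. KRT8 and KRT18 overlapped by 1084 bases on opposite strands, through longer KRT8 transcripts, while the main KRT8 transcript, from 52897191 to 52905076, ended before KRT18. KRT7-AS, inside KRT7 on the opposite strand, had 98 to 158 scaled reads, and its log2 fold changes of −0.05, −0.16 and −0.04 in D11, WB1 and TD5 did not pass. LINC00592, opposite to KRT80, had 3 to 12 scaled reads, and TMEM99, opposite to KRT10, had 182 to 265. MIR6510, inside KRT15 on the same strand, had 77 to 101 scaled reads in D11 against 53 to 76 in TPC1, 46 to 71 in WB1 and 46 to 82 in TD5. D11 had the highest mean, but neither D11 against TPC1 (0.33, adjusted p = 0.138) nor the F test (adjusted p = 0.0617) passed. TD5 against D11 was −0.48 (adjusted p = 0.0494), short of 1.5-fold. The strand cannot separate its reads from those of KRT15, so it is no independent observation. Of the 3 tested keratin pseudogenes, KRT8P12, a copy of KRT8, had 158 to 245 scaled reads and KRT18P12, a copy of KRT18, had 31 to 62, and none was called in a clone. The sequences of KRT8 and KRT18 were not compared with those of their pseudogenes. How many of their reads were lost or placed there is not known, so their levels and ratio are uncertain to that extent.

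Across the 12 libraries the keratins resembled each other unequally. These values are descriptions, since the libraries share lines and scaling. KRT18 and KRT80 were most alike (Pearson r = 0.92 of the log2 values), KRT18 and its partner KRT8 had 0.55, KRT18 and KRT81 had 0.72, and KRT10 ran against KRT18 with −0.80. Among all tested genes the nearest to KRT81 over the 12 libraries was SERINC2 (r = 0.971), with mean scaled reads of 2233 in TPC1, 1920 in D11, 1172 in WB1 and 2028 in TD5, followed by ADAM15 (0.95) and SYTL3 (0.948). For KRT18 the nearest were NNMT (0.985), NAXE (0.981) and SNX32 (0.979). For KRT80 they were TRAF7 (0.968), the chaperone regulator BAG3 (0.956) and KLHDC3 (0.955). For KRT8 they were UQCR10 and CDKN1C (0.945 each) and N4BP3 (0.943). For KRT15 they were E2F6 (0.953), ENSA (0.925) and the stress-response factor ATF4 (0.919).

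The other 46 keratins of the file were mostly silent. Only KRT33B, KRT34 and KRT86, all of the hair group, were tested, and KRT86 in WB1 was the 1 call among them. KRT33B had 47 to 50 scaled reads in TPC1, and KRT34 29 to 45. KRT6A, KRT6B, KRT16 and KRT20 had at most 2 in any library. Of the other intermediate filament genes 6 were tested and 0 called in a clone, with median log2 fold changes of 0.06, 0.10 and 0.22 in D11, WB1 and TD5. VIM, the mesenchymal filament gene, had 30096 to 35818 scaled reads, and its log2 fold changes were −0.06 in D11 (interval −0.19 to 0.06), 0.04 in WB1 (−0.09 to 0.16) and 0.08 in TD5 (−0.04 to 0.21).

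Of 8 tested keratin-binding plakins and scaffolds 1 was called in each clone. Of all tested genes 4.84% were called in D11, 4.99% in WB1 and 2.60% in TD5. By the adjusted p alone 1, 2 and 3 of the 8 passed, beside 33.3%, 30.9% and 11.9% of all tested genes. FAM83H, a scaffold that brings casein kinase to keratin filaments, had 802, 766 and 977 scaled reads in TPC1 and 450, 417 and 353 in D11. WB1 had 327, 338 and 358, while TD5 had 514, 589 and 574. All 9 clone libraries were below TPC1, as they were for 6.67% of tested genes. It fell in D11 (log2 fold change −1.02, adjusted p = 3.03e-06) and WB1 (−1.26, adjusted p = 5.52e-07), and in TD5 the value was −0.58 (adjusted p = 0.00139), just short of the fold minimum. FLG, which encodes filaggrin, a binder of keratin filaments in the epidermis, had 10903 to 14136 scaled reads in TD5 against 18528 to 25831 in TPC1 and fell in TD5 (−0.74, adjusted p = 0.003). The list had a median of 0.10, 0.17 and 0.04 in D11, WB1 and TD5. PLEC, the plectin gene, had 20286 to 28762 scaled reads and was not called.

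Of 7 tested desmosome genes 3 fell in D11, 0 were called in WB1 and 2 fell in TD5. The share called over all tested genes was 4.84% in D11, 4.99% in WB1 and 2.60% in TD5. By the adjusted p alone 3, 3 and 2 of the 7 passed, beside 33.3%, 30.9% and 11.9% of all tested genes. PKP2, a plakophilin that links keratin to the desmosome, had 275, 221 and 203 scaled reads in TPC1 and 38, 52 and 32 in D11, with 164, 139 and 143 in WB1 and 115, 190 and 136 in TD5. It fell in D11 (log2 fold change −2.06, adjusted p = 1.14e-07) and in TD5 (−0.61, adjusted p = 0.0187), and in WB1 the value was −0.58 (adjusted p = 0.0125). The TD5 call was lost with a pseudocount of 4 (−0.47), without a filter (adjusted p = 0.0581), and without TPC1 replicate 1 (−0.50, adjusted p = 0.0936), TD5 replicate 1 (−0.47, adjusted p = 0.0947) or TD5 replicate 3 (−0.58, adjusted p = 0.0547). The WB1 value lay close to the 1.5-fold minimum and was called without TPC1 replicate 2 or 3 or WB1 replicate 1, at −0.61 to −0.66. With all libraries it was called at −0.63 with a pseudocount of 0.1, −0.64 with median-of-ratios scaling, −0.65 with upper-quartile scaling, −0.66 with voom on estimated reads, −0.68 after length correction and −0.70 after GC correction, with or without the replicate block.

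DSC2, a desmosomal cadherin, had 52, 41 and 65 scaled reads in TPC1 and 59, 55 and 57 in WB1, but 3, 0 and 0 in D11 and 8, 0 and 4 in TD5. It was called lower in both (adjusted p = 3.57e-07 and 2.62e-06), and in D11, where every library was at or under the floor, it was at least 13.9-fold lower. JUP, plakoglobin, fell in D11 (−0.61, adjusted p = 0.00231), but not without TPC1 replicate 2 (−0.57), with a pseudocount of 4 (−0.56) or after correction for GC content (−0.49). The median of the list was −0.16 in D11, 0.07 in WB1 and −0.01 in TD5. DSP, the desmoplakin gene that joins keratin to the plaque, had at most 7 scaled reads in any library. DSG2, of the same list, went the other way without being called. Its TPC1 libraries held 4304 to 4498 scaled reads. All clone libraries lay above them, at 4671 to 4971 in D11, 5160 to 5857 in WB1 and 4619 to 5517 in TD5. DSG2 passed the F test (adjusted p = 0.0055). The WB1 log2 fold change was 0.32 (adjusted p = 0.00185), short of 1.5-fold. The values of 0.12 for D11 and 0.20 for TD5 did not pass, at 0.155 and 0.0514.

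Among 6 tested hemidesmosome genes ITGA6, the laminin-binding integrin chain, rose in D11 (log2 fold change 0.66, adjusted p = 5.43e-05), and none was called in WB1 or TD5. ITGA6 had 1220, 1320 and 1208 scaled reads in TPC1 and 1966, 1961 and 2013 in D11. WB1 had 1522 to 2048 (0.45, adjusted p = 0.00118), short of the fold minimum, and TD5 1335 to 1456 (0.16, adjusted p = 0.23). The D11 call was lost after correction for GC content, with or without the replicate block (0.49), after length correction (0.58) and with upper-quartile scaling (0.57). Among 7 tested epithelial transcription factors ELF3 alone was called against TPC1, in opposite directions in D11 and TD5. Beside both lists, 4.84% of all tested genes were called in D11, 4.99% in WB1 and 2.60% in TD5. By the adjusted p alone 3 hemidesmosome genes passed in D11, 4 in WB1 and 0 in TD5. For the transcription factors this was 3, 4 and 3, beside 33.3%, 30.9% and 11.9% of all tested genes. ELF3 had 47, 55 and 35 scaled reads in TPC1, followed by 10, 10 and 13 in D11 and 21, 35 and 42 in WB1. The TD5 libraries had 161, 78 and 102. ELF3 fell in D11 (−1.07, adjusted p = 0.000946) and rose in TD5 (0.99, adjusted p = 0.00332), with TD5 against D11 at 2.06 (adjusted p = 1.8e-06). With a pseudocount of 4 the value in D11 was −0.46. GRHL2 and ESRP1, regulators of epithelial identity, were at 0 in all libraries. Of 9 tested genes of keratin folding and turnover and of 2 tested cornified envelope genes 0 were called in a clone. FLG, FAM83H, PKP2, DSC2, ITGA6 and ELF3 are each overlapped in the annotation by a gene on the other strand, so the limit on strand given for the keratins holds for them as well.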

How the data were processed

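The 12 RNA-seq libraries, 3 for each of TPC1, D11, WB1 and TD5, were assigned to lines by their titles. The authors made stranded mRNA libraries, aligned paired-end reads with STAR 2.5.3a to GRCh38 (tools and build as in the submitters' processing notes), counted reads per Ensembl gene with HTSeq 0.9.1 and normalized them. The deposited values are treated as a score, since they are counts scaled to 20000000 per library and rounded up to whole numbers. Library sums were 20009833 to 20014191. Reads were estimated from the steps between the values.

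The authors' methods name a count test, which scaled values do not allow, so limma 3.58.1 (R 4.3.3) was applied to log2(value per 1000000 + 1), with a mean-variance trend, 1 mean per line and all 12 libraries. Genes needed 1 per 1000000 in 3 libraries. The method was tested on simulated data. Positions, transcripts and coding sequence identities are from GENCODE on GRCh38, read with Biopython 1.88 and Python 3.11.15. The per-kilobase level used the main (MANE) transcript. Of the fixed thyroid list 1 further marker, and the aligned coding sequences, are not reported here. The annotation may differ from the gene models behind the counts.

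The members and gene lists were chosen with earlier results of these data known. The 9 gene lists are other keratins, keratin pseudogenes, plakins and scaffolds, desmosome, hemidesmosome, epithelial transcription factors, folding and turnover, cornified envelope and other intermediate filaments. Named besides the members were KRT86, overlapping genes, at most 3 called genes per list and clone, and FOXE1 and the other thyroid markers, and the 3 genes with the highest correlation to each of the 5 members that passed the F test. KRT83, KRT85, KRT87P, LUM, PDGFRB and the genes given to describe a list or a cell type were named after their values were seen. Alternatives covered the pseudocount, filter, scaling, fold minimum, GC content, length, test, libraries in the fit and the replicate block. Same-numbered libraries deviated together in all 3 replicates only in D11 and TD5 (correlations 0.107, 0.172 and 0.348). The labels do not mention a pairing. The main tests used none, and the replicate block was only an alternative.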

Additional observations from a re-analysis of the deposited data

Results flagged for a closer look

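KRT81 differed between clones by the test of the difference itself. It was lower in WB1 than in D11 by a log2 fold change of −1.90 (adjusted p = 2.27e-08), with 203, 274 and 212 scaled reads against 894, 935 and 882. TD5 against WB1 gave 2.43 (adjusted p = 1.23e-09), with 1306, 1641 and 1066 scaled reads in TD5. All 3 libraries of each line showed these directions. Both values come from the same 3 WB1 libraries.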

How the results depend on the processing

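The fall of KRT81 in WB1, and its difference between WB1 and the other clones, held under every alternative that was run, with log2 fold changes of −3.01 to −2.62 against TPC1, −2.02 to −1.67 against D11 and 2.18 to 2.58 for TD5 against WB1. KRT81 in D11 lay between −1.07 and −0.87. It ceased to be called only with a 2-fold minimum, which left 0 keratins in D11. Correction for GC content, alone or with the replicate block, left 1 keratin called in D11. Without a fold minimum 5 keratins passed in D11, 4 in WB1 and 3 in TD5, as did 2 in WB1 against D11, 4 in TD5 against D11 and 3 in TD5 against WB1. TD5 against D11 gave 1 call with median-of-ratios scaling (KRT81) and 2 with upper-quartile scaling (KRT80 and KRT81). Leaving out 1 library at a time gave 1 to 2 calls in D11 against TPC1, 0 to 1 in TD5 against TPC1 and 0 to 2 in TD5 against D11. The other counts of called keratins, the F test included, stayed within 1.5 times.

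Values near 0 changed sign. KRT15 was −0.05, −0.07 and −0.04 in WB1 with median-of-ratios scaling, upper-quartile scaling and length correction, and −0.05 to 0.06 without 1 library. In TD5 it was −0.01 with upper-quartile scaling and 0.00 with voom on estimated reads, and −0.06 to 0.13 without 1 library. KRT7 in TD5 was 0.01 after GC correction, with or without the block, and −0.10 to 0.03 without 1 library, and KRT80 in TD5 was −0.23 to 0.01.

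The replicate block alone changed no call of a keratin, and in the fit of TD5 and D11 only, chosen after seeing the data, 0 keratins were called with it. With the block and GC correction KRT8 did not pass the adjusted p in D11 (0.0548) or WB1 (0.0590). PKP2 in WB1, not called above, was called at −0.63 to −0.70 under 7 settings with all libraries. FAM83H in TD5, likewise not called above, was called with values of −0.59 to −0.61 under 6 other settings. Counting depth limits KRT17, KRT19, KRT83 and KRT85, and reads shared between KRT81, KRT83 and KRT86 limit those levels.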
